A study of Homo sapiens with 38 samples.

Results

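The genes described here are 10 components of WNT signalling, taken by their symbols from a table of 57133 genes measured in Shef6, an established human embryonic stem cell line. They are the feedback targets AXIN2, SP5, LEF1, NKD1 and LGR5, the secreted antagonists DKK1, SFRP1 and SFRP2, the ligand WNT3 and the receptor FZD7. In GENCODE v44 on hg38, SP5 and FZD7 lie on chromosome 2, LEF1 and SFRP2 on 4, SFRP1 on 8, DKK1 on 10, LGR5 on 12, NKD1 on 16, and AXIN2 and WNT3 on 17. All 10 passed the filter on low counts that left 16674 genes to test. LEF1 and DKK1 passed it through 1 of the 19 groups of libraries each, and LGR5 through 2, so for these 3 genes the groups in which they are high decided that they were tested at all.

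The study grew naive Shef6 cells without feeder cells in PXGL, a medium that holds the MEK inhibitor PD0325901, the tankyrase inhibitor XAV939, the PKC inhibitor Gö6983 and the cytokine LIF. All cells had been adapted to serum-coated plates, and the naive libraries came from cells on serum coating (experiment Ex1) or on Geltrex, a basement membrane extract (Ex1 and Ex2). The 2 naive libraries of Ex2 bear day 4 in their library names but day 0 in title and time point, which were followed, and each value set against them rests on that. In Ex1, the serum-adapted cells were plated on Geltrex straight into N2B27, a basal medium with no added growth factor, or into E8, for 2, 3, 4, 6 or 8 days, or into mTeSR for 4, 6 or 8 days. E8 and mTeSR both contain FGF and a ligand of the Activin/TGFβ branch. In Ex2, cells spent 4 days in N2B27 alone, in the same medium with XAV939 added (XAV), or with XAV939, FGF2 and Activin A together (FAX). Every group held 2 libraries of a single line, and the study calls them technical in some places and biological in another, so p-values here measure the spread between these libraries only. Values are CPM, 3′ tag counts scaled to a common library size, with 1 tag per transcript and therefore not divided by length. The 38 libraries held 3038046 to 5612354 counts, so that 3 counts, taken as the floor below which the level of a group is not read, stood for 0.518 to 1.06 CPM depending on the library. Libraries labelled naive had 1339 to 1809 CPM in the sum of 8 naive markers and 35.4 to 52.0 in that of 7 primed or formative ones, against 608 to 666 and 571 to 664 CPM in N2B27 on day 8. In these bulk samples, fewer cells making a transcript and less transcript per cell cannot be told apart.

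In canonical WNT signalling, a WNT ligand binds a Frizzled receptor and an LRP co-receptor, the complex that destroys β-catenin is stalled, and β-catenin joins TCF/LEF factors on DNA. XAV939 acts at the other end: it inhibits tankyrase, which otherwise marks AXIN proteins for degradation, and so stabilises the destruction complex. Many targets feed back on the pathway. AXIN2 is a scaffold of the destruction complex, NKD1 binds Dishevelled, SP5 is a zinc finger repressor, LEF1 is itself a partner of β-catenin and LGR5 is a receptor for R-spondins, which raise the amount of Frizzled at the membrane. DKK1 blocks LRP co-receptors, whereas SFRP1 and SFRP2 bind WNT ligands in the extracellular space. In the peri-implantation epiblast these genes are best known from the onset of the primitive streak, which needs WNT3.

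The proximal promoters of 3 members are printed here with the core letters of a TCF/LEF motif, CTTTGA, marked. RefSeq promoters (GRCh38.p14) were found for 5 of the 10 members, and the 250 bases before each start were searched for CTTTGA on both strands. AXIN2, NKD1, LGR5, SFRP1 and FZD7 had no entry in the table used. The windows below run 5′ to 3′ on the strand of the gene, with every match in capitals; TCAAAG is a match on the opposite strand. They are the window of SP5 (chr2:170715087-170715336, plus strand), that of DKK1 (chr10:52314031-52314280, plus strand) and that of SFRP2 (chr4:153789084-153789333, minus strand). The windows with a match are thus shown, with 1 that had none.
SP5: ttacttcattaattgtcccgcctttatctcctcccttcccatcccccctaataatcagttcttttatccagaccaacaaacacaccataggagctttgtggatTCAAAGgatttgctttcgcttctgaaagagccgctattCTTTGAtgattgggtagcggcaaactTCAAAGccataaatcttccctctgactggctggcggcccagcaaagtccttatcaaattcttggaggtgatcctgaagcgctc
DKK1: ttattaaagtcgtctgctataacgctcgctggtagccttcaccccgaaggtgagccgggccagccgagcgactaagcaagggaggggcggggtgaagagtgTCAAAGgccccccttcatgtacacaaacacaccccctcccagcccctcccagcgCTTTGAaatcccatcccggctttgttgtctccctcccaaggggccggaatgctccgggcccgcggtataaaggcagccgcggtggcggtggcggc
SFRP2: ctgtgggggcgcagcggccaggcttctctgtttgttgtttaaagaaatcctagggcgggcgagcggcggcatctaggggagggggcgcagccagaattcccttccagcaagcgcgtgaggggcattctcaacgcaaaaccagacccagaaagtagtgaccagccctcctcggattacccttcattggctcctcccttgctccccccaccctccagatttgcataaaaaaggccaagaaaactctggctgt
Each of these windows ends at the base before the first base of the gene in GENCODE v44. The SP5 window held 3 matches, at 147, 109 and 83 bases before the start, and the DKK1 window 2, at 149 and 95 bases. No match was found in the windows of SFRP2, LEF1 and WNT3, of which those of LEF1 and WNT3 lie inside the genes as GENCODE v44 draws them, downstream of its gene starts. Of 35116 promoter windows of the same length, 11.2% held at least 1 match. A match describes these letters only, and the window says nothing of binding elsewhere in the gene.

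Among the feedback targets, SP5 had the widest range. The 4 naive libraries of Ex1 had 0.895 to 3.05 CPM of SP5 and the 2 of Ex2 had 0.276 and 0.340 CPM, which is 1 count each. In N2B27, SP5 reached 5.38 and 3.55 CPM on day 2, 6.38 and 8.98 on day 3, 24.0 and 25.5 on day 4 in Ex1, 88.5 and 86.7 on day 6 and 178 and 168 on day 8. Each of these groups lay above all 6 naive libraries. The change of SP5 from naive cells was a log2 fold change of 1.5 ± 0.48 (SE) on day 2 (edgeR quasi-likelihood test, adjusted p = 0.014), 3.72 ± 0.30 on day 4 (n = 4 against 6, adjusted p = 2.7e-12), 5.77 ± 0.30 on day 6 (adjusted p = 1.6e-17) and 6.75 ± 0.28 on day 8 (adjusted p = 5.1e-20), the last a 108-fold difference. The day 2 call rested on N2B27 replicate 1, without which the change was 1.15 and not called. It was also lost with the compared libraries alone.

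AXIN2, the usual readout of canonical WNT activity, had another pattern than SP5 and was counted in every library. Naive cells had 55.4 and 40.9 CPM on serum coating, 35.6 and 34.0 on Geltrex in Ex1, and 21.4 and 18.2 on Geltrex in Ex2. N2B27 libraries of Ex1 had 49.4 and 31.4 CPM on day 2, 67.9 and 54.1 on day 3, 42.7 and 41.4 on day 4, 44.9 and 32.7 on day 6, and 41.9 and 54.2 on day 8. These ranges overlapped the naive range at every day. Day 3 was 0.81 ± 0.22 above naive cells on the log2 scale (edgeR adjusted p = 0.0049), below the 2-fold limit, and N2B27 on day 8 differed from naive cells by 0.47 on the log2 scale (95% interval 0.01 to 0.94, adjusted p = 0.089). The naive level of AXIN2 differed between the experiments, so that values within each are given too. Against the naive libraries of its own experiment, AXIN2 differed by 0.24 on day 8 in N2B27 of Ex1 (adjusted p = 0.23), but by 0.88 on day 4 in N2B27 of Ex2 (adjusted p = 0.0021), where the naive level was lowest. Set on the same day, the change from Geltrex naive cells to N2B27 on day 4 was 0.61 ± 0.30 larger in Ex2 than in Ex1, which was not called (edgeR adjusted p = 0.20). Between the Geltrex naive libraries of Ex2 and those of Ex1, AXIN2 differed by -0.82 (adjusted p = 0.011), within the 2-fold limit set for a call.

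NKD1 rose late. Naive cells had 1.96 to 3.58 CPM, N2B27 had 4.15 and 5.82 CPM on day 6, and on day 8 it had 10.1 and 7.56 CPM. The day 8 libraries were the highest of all, and the change from naive cells was 1.67 ± 0.27 (edgeR adjusted p = 5.3e-06), a 3.18-fold difference. On day 6 the change was 0.86 (adjusted p = 0.019), below the 2-fold limit.

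LEF1 and LGR5 were at or near 0 for most of the series. The 6 naive libraries held 2, 0, 0, 0, 0 and 0 counts of LEF1, whereas N2B27 held 6 and 5 counts on day 6 and 17 and 12 on day 8 (3.73 and 2.16 CPM). LEF1 was thus at least 2.89-fold higher on day 8 than the level 3 counts would give in naive cells (adjusted p = 2.2e-06), and at least 1.10-fold higher on day 6 (adjusted p = 0.0019). On day 2, LEF1 was called on 2 and 4 counts in N2B27 (edgeR adjusted p = 0.036), too few for a fold. That call was lost without any 1 of 5 naive libraries, without N2B27 replicate 2, with the compared libraries alone and without a filter. LGR5 had at most 2 counts in a naive library, 0.623 and 1.81 CPM on day 6 in N2B27 and 38 and 42 counts (8.34 and 7.56 CPM) on day 8. It was at least 7.79-fold higher on day 8 (adjusted p = 1.0e-08) and at least 1.19-fold higher on day 6 (adjusted p = 0.0055). The day 6 call rested on replicate 2, without which 3 counts remained and LGR5 was not called. In both genes the day 8 libraries in N2B27 stood above every other library of the series. Both passed the filter on low counts through groups of day 8 alone, so that their p-values on that day add no support.

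**Figure D1:**
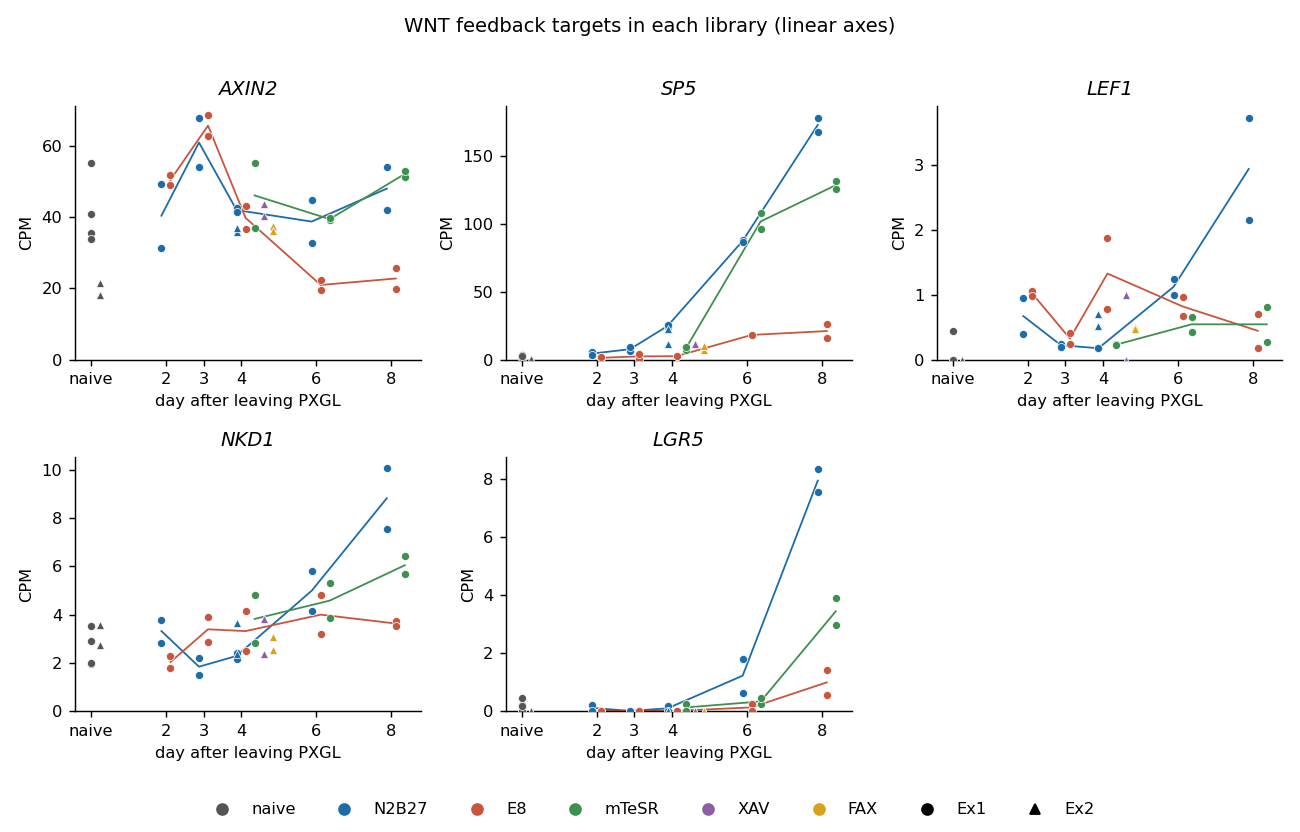
CPM of the 5 feedback targets AXIN2, SP5, LEF1, NKD1 and LGR5 (linear vertical axes) against day in medium, with naive cells at day 0. Circles are libraries of Ex1 and triangles libraries of Ex2, lines join the means of Ex1 groups, and mTeSR, XAV and FAX points are moved slightly right. SP5 climbed to 178 and 168 CPM in N2B27 on day 8 against 25.9 and 16.2 in E8. AXIN2 had 19.8 and 25.8 CPM in E8 on that day, below every naive library of Ex1 but above the lowest of Ex2, at 18.2.

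The secreted antagonists moved apart from each other. SFRP2 appeared first: naive libraries held at most 1 count, and by day 2 N2B27 libraries had 61.2 and 49.9 CPM, at least 54.4-fold above the level of 3 counts (edgeR adjusted p = 8.1e-24). It then stood at 52.0 and 50.7 CPM on day 3, 37.0 and 38.7 on day 4 in Ex1, 23.0 and 23.9 on day 6 and 22.0 and 22.5 on day 8. The 2 libraries of day 2 thus lay above those of days 4, 6 and 8, and day 8 was still at least 21.8-fold above the naive level (adjusted p = 1.0e-20).

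SFRP1 followed a U-shaped course in N2B27. Naive cells had 50.1 and 47.0 CPM on serum coating, 67.8 and 58.2 on Geltrex in Ex1 and 88.8 and 86.8 on Geltrex in Ex2. N2B27 libraries had 17.3 and 14.4 CPM on day 2, 5.89 and 9.58 on day 3, 7.25 and 8.21 on day 4 in Ex1, 17.0 and 15.7 on day 6 and 74.6 and 61.9 on day 8. SFRP1 was below every naive library from day 2 to day 6 and inside the naive range on day 8. It fell by 2.05 ± 0.23 on the log2 scale on day 2 (adjusted p = 1.5e-08) and by 3.38 ± 0.20 on day 4 (adjusted p = 5e-16), and on day 8 the difference was 0.05 (95% interval -0.34 to 0.44, adjusted p = 0.87). Against the naive libraries of Ex1 alone, the day 8 difference was 0.30 (adjusted p = 0.044), below the 2-fold limit.

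DKK1 was the latest of the 3. All 6 naive libraries held 0 counts, which allows a level of up to 3 counts in each, and no library before day 8 held more than 2 counts. On day 8 in N2B27 it had 15 and 15 counts (3.29 and 2.7 CPM), at least 2.94-fold above the floor of naive cells (edgeR adjusted p = 4.9e-06). DKK1 passed the filter on low counts through this group alone, so that the p-value adds no support.

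The receptor FZD7 rose, whereas the ligand WNT3 was not called in N2B27 on any day. FZD7 had at most 3 counts in naive cells, and in N2B27 it had 23.1 and 15.8 CPM on day 2, 22.3 and 27.3 on day 4 in Ex1, 30.7 and 27.3 on day 6 and 64.8 and 73.8 on day 8. It was at least 19.1-fold above the level of 3 counts on day 2 (edgeR adjusted p = 6.5e-18) and at least 67.9-fold on day 8 (adjusted p = 6.1e-24). WNT3 had 26.8 to 34.6 CPM in the naive libraries of Ex1, above every other library, but 16 and 17.6 CPM in those of Ex2, among the values of N2B27, which had 18.9 and 15.5 CPM on day 8. The difference on day 8 was -0.65 ± 0.22 over all naive libraries (adjusted p = 0.015) and -0.88 against those of Ex1 (adjusted p = 3.9e-05), short of the 2-fold limit both times. In Ex2, WNT3 on day 4 in N2B27 lay 0.07 from its own naive libraries (adjusted p = 0.83).

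**Figure D2:**
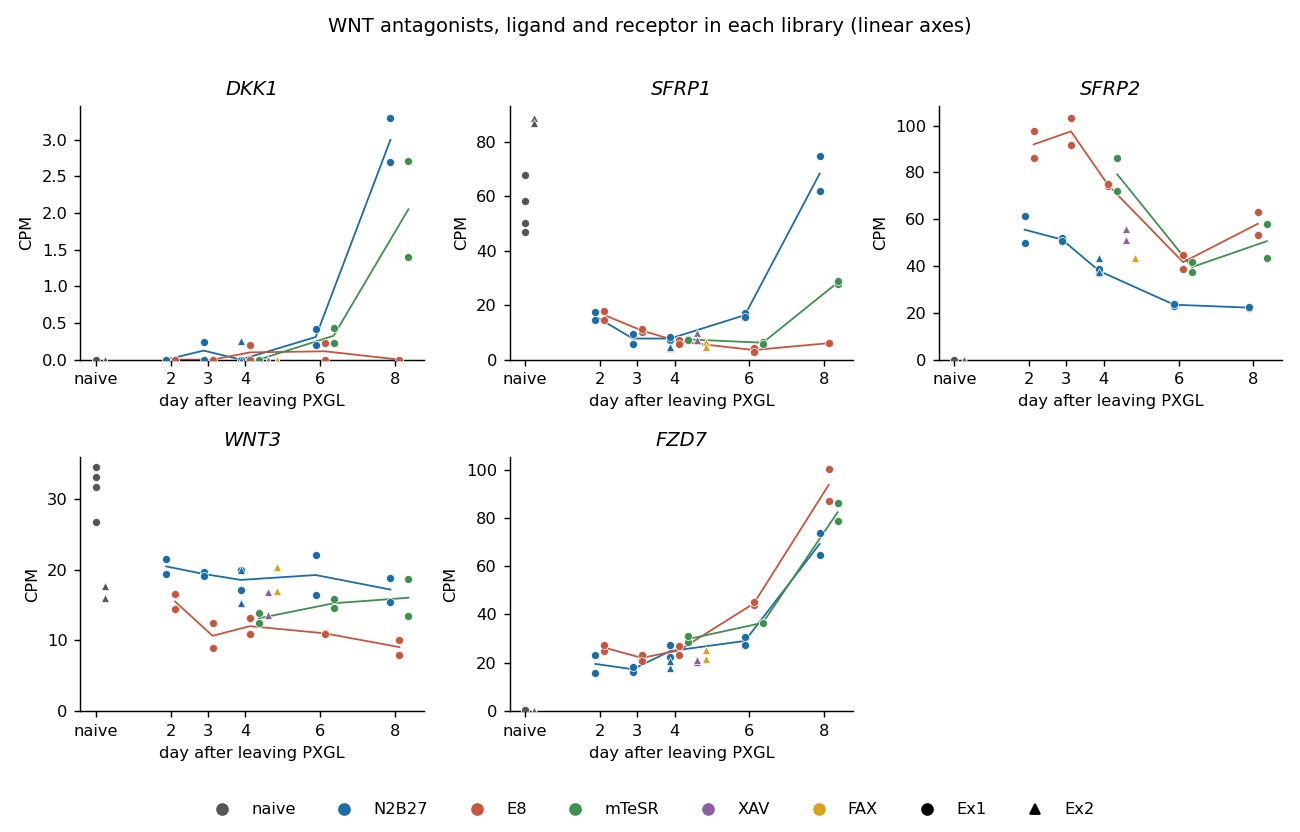
CPM of the antagonists DKK1, SFRP1 and SFRP2, the ligand WNT3 and the receptor FZD7 (linear vertical axes) against day in medium, with the same symbols, lines and shifts as the plot of feedback targets. SFRP1 returned to 74.6 and 61.9 CPM in N2B27 on day 8 but stayed at 5.97 and 6.10 in E8, whereas SFRP2 was higher in E8 than in N2B27.

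Called changes are those with an adjusted p under 0.05 and a change of more than 2-fold. Against naive cells, 5 members were called in N2B27 on day 2, when 16.2% of all tested genes were, 4 on day 4 (18.4%), 6 on day 6 (23.1%) and 7 on day 8 (23.9%). The 7 of day 8 were all higher, namely SP5, LEF1, NKD1, LGR5, DKK1, SFRP2 and FZD7, where 16.9% of tested genes were called higher and 7.03% lower. LEF1, LGR5 and DKK1 passed the filter through day 8, so that their calls were favoured by it, and the other 7 members gave 4. On day 8 the counts were 6 in E8 (27.5% of tested genes) and 7 in mTeSR (25.2%), and on day 4 they were 4 in XAV (17% of tested genes) and 4 in FAX (17.1%). All these comparisons share the 6 naive libraries and are not independent of each other. In N2B27, SFRP2, FZD7 and SFRP1 had moved by day 2, while NKD1 and DKK1 were called on day 8 and not before.

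In E8 on day 8, SP5, LGR5, SFRP2 and FZD7 were called higher than in naive cells and SFRP1 and WNT3 lower. AXIN2 differed from naive cells by -0.61 ± 0.25 (edgeR adjusted p = 0.044) and was not called. Against the naive libraries of Ex1 alone, AXIN2 differed by -0.85 (edgeR adjusted p = 0.00019), within the 2-fold limit, and both E8 libraries lay below all of them. WNT3 fell by 1.57 ± 0.24 on the log2 scale (edgeR adjusted p = 2.1e-06) and, against naive cells of Ex1 alone, by 1.78 (adjusted p = 6.9e-10). LGR5 rested on 3 and 6 counts in E8 (adjusted p = 0.019), too few for a fold, and was not called by DESeq2 or without E8 replicate 2. In mTeSR on day 8, SP5, NKD1, LGR5, DKK1, SFRP2 and FZD7 were called higher and SFRP1 lower (-1.22 ± 0.22, adjusted p = 2e-05), and the SFRP1 call was lost against naive cells of Ex1 alone (-0.97, adjusted p = 1.1e-06).

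Ranked over media and days, SP5, NKD1 and SFRP1 had their highest mean in N2B27 on day 8, although SFRP1 was higher still in the naive libraries of Ex2. LEF1 and DKK1 also ranked highest there, which the filter on low counts had fixed. For LGR5, which ranked highest there too, the filter had fixed only that N2B27 or mTeSR on day 8 would lead. AXIN2 and SFRP2 were highest in E8 on day 3, at means of 65.7 and 97.6 CPM, FZD7 in E8 on day 8 at 93.8 CPM, and WNT3 in naive cells at 26.6 CPM. That naive mean pools both experiments, and in Ex2 the naive libraries overlapped those of N2B27. Except for SP5, most neighbours in these orders overlapped. Of 15 neighbouring pairs, the libraries were separate in 8 for SP5, 6 for SFRP1, 6 for FZD7, 5 for SFRP2, 3 for LEF1, 3 for LGR5 and 1 each for AXIN2, NKD1, DKK1 and WNT3. Such pairs were not counted over all genes, so these numbers only describe the orders.

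E8 and N2B27 were compared on the same day of the same experiment. The 2 media differ in their whole formulation, so that the part of any 1 component cannot be told apart. On day 2, SP5 had 1.06 and 1.64 CPM in E8 against 5.38 and 3.55 in N2B27, a difference of -1.72 (95% interval -3.04 to -0.40, edgeR adjusted p = 0.074). No member was called that day, 3 having an unadjusted p under 0.05, while 4.54% of tested genes were called. DESeq2 called 1 member, SP5, as did edgeR without a filter or with plain library totals.

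On days 3 and 4, SP5 alone was called. It had 0.477 CPM (2 counts) and 4.32 CPM in E8 on day 3, apart from each other by more than the libraries of N2B27, and the difference of -1.61 ± 0.45 (edgeR adjusted p = 0.028) was lost without E8 replicate 1 (adjusted p = 0.28), without N2B27 replicate 1 (adjusted p = 0.058) or without N2B27 replicate 2 (adjusted p = 0.15). By day 4, SP5 had 2.50 and 2.55 CPM in E8, 9.70-fold below N2B27 of the same experiment (adjusted p = 1.9e-07). SP5 was 1 of 10 members called, against 1.68% of tested genes called on day 3 and 2.49% on day 4. SFRP2 was higher in E8 on both days, by 0.93 (adjusted p = 0.00012) and 0.98 (adjusted p = 4.3e-05), just short of the 2-fold limit.

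On day 6, SP5 and SFRP1 were both called lower in E8, when 5.28% of tested genes were called. SP5 had 18.1 and 18.4 CPM in E8, a difference of -2.26 ± 0.24 from N2B27 (edgeR adjusted p = 6.3e-08). SFRP1 had 4.09 and 2.95 CPM, a difference of -2.21 ± 0.24 (adjusted p = 1e-07). SFRP1 had not yet begun to return in E8, whereas it had in N2B27. AXIN2 had 19.5 and 22.5 CPM in E8, below both N2B27 libraries, with a log2 difference of -0.88 ± 0.21 (adjusted p = 0.0036).

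By day 8, 8 members were called between the 2 media, when 7.29% of tested genes were called. SFRP2 was the 1 called higher in E8 (3.33% of tested genes), and AXIN2, SP5, LEF1, NKD1, LGR5, DKK1 and SFRP1 were the 7 called lower (3.96%). LEF1, LGR5 and DKK1 were tested only because they are high in N2B27 on day 8 and, for LGR5, in mTeSR on day 8 too; the other 7 members gave 5 calls, 4 of them lower. E8 libraries had 19.8 and 25.8 CPM of AXIN2, 2.13-fold lower than N2B27 (log2 difference -1.09 ± 0.20, edgeR adjusted p = 0.0002). SP5 stood at 25.9 and 16.2 CPM, 8.11-fold lower (log2 difference -3.02 ± 0.23, adjusted p = 3.4e-11). NKD1 had 3.73 and 3.52 CPM, 2.41-fold lower (-1.27 ± 0.33, adjusted p = 0.0070). So the feedback targets read well above the floor were each lower in E8, SP5 by the most.

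LEF1, LGR5 and DKK1 entered the test through 1 or 2 groups each, so their lower level in E8 is given as a value and adds no support to that of the other members. LGR5 had 3 and 6 counts in E8 against 38 and 42 in N2B27 and was called lower (edgeR adjusted p = 0.0013), with too few counts in E8 for a fold. LEF1 had 1 and 3 counts in E8, at least 4.19-fold lower (adjusted p = 0.013), and DKK1 had 0 and 0 counts, at least 4.26-fold lower (adjusted p = 0.0018). DESeq2 called AXIN2, SP5, SFRP1 and SFRP2 only, 4 of the 8, and gave adjusted p of 0.051 for NKD1, 0.096 for LGR5, 0.11 for LEF1 and 0.17 for DKK1. Without E8 replicate 1, AXIN2 (-0.90), LEF1 and NKD1 were no longer called. NKD1 and LEF1 were not called without N2B27 replicate 1 either, nor was AXIN2 (-0.89) without N2B27 replicate 2.

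SFRP1 showed the largest called difference of a well-counted member between the media. It had 5.97 and 6.10 CPM in E8 on day 8, 11.3-fold below N2B27 (-3.49 ± 0.19, edgeR adjusted p = 1.1e-14). SFRP2 went the other way, with 62.9 and 53.3 CPM in E8, 2.62-fold higher (1.39 ± 0.16, adjusted p = 1.1e-07). The 2 secreted Frizzled-related antagonists therefore differed between the media in opposite directions on the same day. FZD7 had 100 and 87.3 CPM in E8, 0.44 above N2B27 (adjusted p = 0.025), and WNT3 had 10.1 and 7.98 CPM, a difference of -0.91 (adjusted p = 0.0027), neither past the 2-fold limit.

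Genes that mark some other cell types differed between these libraries as well. Lists of amnion and neural genes were also drawn up and are not reported here. The primitive streak genes TBXT, MIXL1, EOMES and GSC summed to 225 to 297 CPM in N2B27 on day 8 and to 37.0 to 39.4 in E8, with 4 of 4 called lower in E8. The primitive endoderm list, GATA4, GATA6, SOX17, PDGFRA and FOXA2, summed to 152 to 170 CPM in N2B27 and to 18.1 to 22.6 in E8, with 5 of 5 lower. The trophectoderm list of 6 genes, 4 of them tested, gave 60.3 to 71.3 CPM against 22.4 to 24.4, with CDX2, GATA2 and GATA3 lower. Of 5 fibroblast genes, COL1A1, COL1A2 and COL3A1 were tested and DCN and LUM were too low to be, and the list summed to 162 to 171 CPM in N2B27 against 99.9 to 102 in E8, with COL1A2 and COL3A1 lower. The 3 general pluripotency genes were not called, at 1282 to 1302 CPM in N2B27 and 1429 to 1819 in E8. Naive libraries had 2.72 to 21.9 CPM of the primitive streak list, 0.681 to 4.19 of the primitive endoderm list and 1.96 to 4.42 of the fibroblast list. Their part in the differences of the members was not tested.

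In mTeSR on day 8, AXIN2 and SP5 lay nearer to their N2B27 levels than in E8. SP5 had 132 and 126 CPM, below both N2B27 libraries, with a log2 difference of -0.43 (95% interval -0.84 to -0.02, edgeR adjusted p = 0.19). AXIN2 had 51.4 and 53.0 CPM, a difference of 0.11 from N2B27 (95% interval -0.27 to 0.50, adjusted p = 0.77). The feedback targets that were lower in E8 were thus not called in mTeSR, although the interval for SP5 lay wholly below 0.

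SFRP1 and SFRP2 were the 2 members called between mTeSR and N2B27 on day 8, when 3.81% of tested genes were called. SFRP1 had 27.9 and 28.7 CPM, a difference of -1.27 ± 0.16 (2.16% of tested genes lower, edgeR adjusted p = 1.6e-06). SFRP2 had 43.3 and 58.0 CPM, higher by 1.18 ± 0.16 (1.65% higher, adjusted p = 8e-06), and without mTeSR replicate 2 it was 0.96 higher and not called. LEF1 had 3 and 1 counts in mTeSR, at least 3.52-fold below N2B27 but with an adjusted p of 0.052. LGR5 had 2.98 and 3.90 CPM (-1.20 ± 0.55, adjusted p = 0.18) and DKK1 10 and 5 counts (-0.53 ± 0.69, adjusted p = 0.70). A fit to the compared libraries alone called 4 members, LEF1 and LGR5 beside the SFRP genes, and LEF1 was also called with plain library totals (edgeR adjusted p = 0.044) and with a filter of more than 10 counts in 2 libraries (adjusted p = 0.048). NKD1 had 5.68 and 6.41 CPM, below both N2B27 libraries, with a difference of -0.54 ± 0.32 (adjusted p = 0.33). The primitive streak list summed to 151 to 199 CPM in mTeSR and no gene of it was called against N2B27, and the primitive endoderm list summed to 82.0 to 84.9 CPM with GATA6 and PDGFRA lower.

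Earlier, mTeSR had stood below N2B27 in SP5 as well. On day 4, SP5 had 6.80 and 8.95 CPM, a difference of -1.65 ± 0.30 from N2B27 (edgeR adjusted p = 0.00081), and SFRP2 had 86.3 and 72.0 CPM, higher by 1.06 ± 0.14 (adjusted p = 2.3e-05). These were the 2 members called, against 1.58% of tested genes, and SFRP2 was 0.93 higher and not called without mTeSR replicate 1. On day 6, SP5 had caught up, at 96.1 and 108 CPM (0.22 above N2B27, 95% interval -0.20 to 0.64, adjusted p = 0.58). SFRP1 was then the 1 member called, at 6.61 and 5.80 CPM with a difference of -1.39 ± 0.22 (adjusted p = 7e-05), where 2.62% of tested genes were called.

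Set directly against E8 on day 8, mTeSR was higher in 4 members, AXIN2, SP5, SFRP1 and DKK1, against 5.31% of tested genes called. AXIN2 was higher by 1.20 ± 0.21 (edgeR adjusted p = 0.00012), SP5 by 2.59 ± 0.23 (adjusted p = 2.1e-09) and SFRP1 by 2.22 ± 0.21 (adjusted p = 3.9e-09). DKK1 was at least 2.91-fold higher (adjusted p = 0.0092), but DESeq2 gave it no adjusted p, and edgeR did not call it with the compared libraries alone (adjusted p = 0.053), without mTeSR replicate 1 (adjusted p = 0.068) or without E8 replicate 1 (adjusted p = 0.099). NKD1 (0.73, adjusted p = 0.19) and WNT3 (0.82, adjusted p = 0.013, within the 2-fold limit) were not called. SFRP2 differed by -0.20 between mTeSR and E8 (95% interval -0.50 to 0.10, adjusted p = 0.41).

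**Figure D3:**
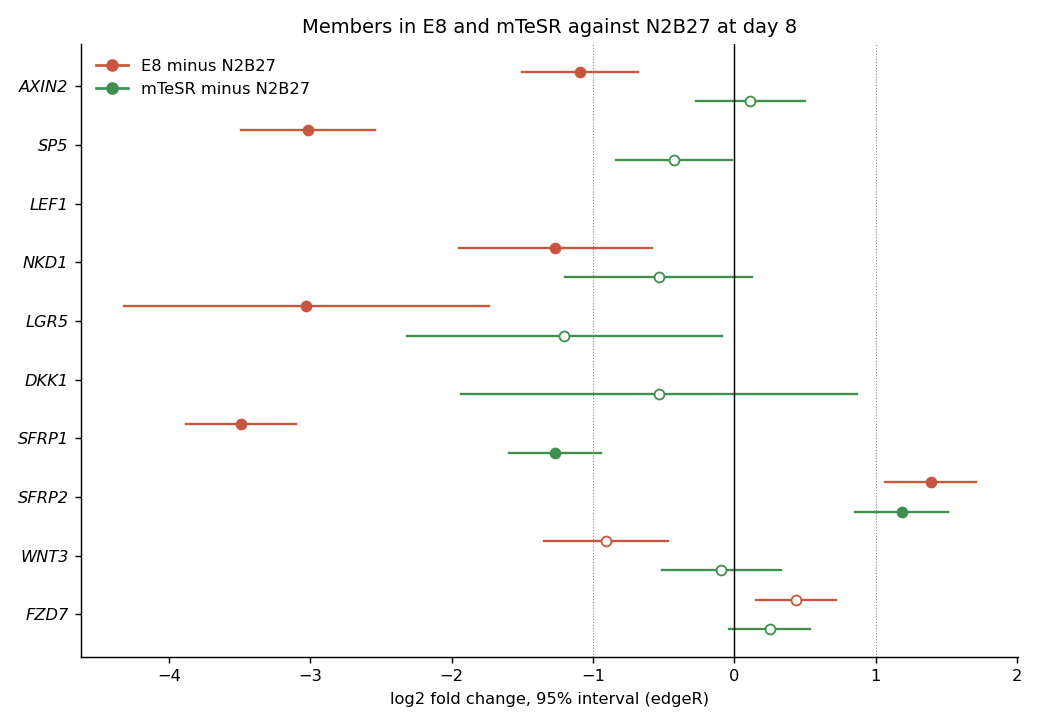
Log2 fold change on day 8 of each member in E8 and in mTeSR against N2B27 (horizontal axis), with its 95% interval; filled points were called, open points were not, and dotted lines mark a 2-fold change. LEF1 is left out of both and DKK1 of E8 because 1 of the groups lay at the floor. LGR5 in E8 is drawn from 3 and 6 counts, too few to be read as a fold. SFRP1 lay at -3.49 in E8 and -1.27 in mTeSR, and SFRP2 at 1.39 and 1.18.

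How the members moved from day 4 to day 8 was compared between media as the difference of 2 differences. Against N2B27, 3 of 10 members were called for E8, where 1.43% of tested genes were, and 1 of 10 for mTeSR (1.69%). SFRP1 rose by 3.14 on the log2 scale in N2B27 over these days, against -0.12 in E8, a difference of -3.26 (edgeR adjusted p = 8.7e-08), and against 1.93 in mTeSR, a difference of -1.21 (adjusted p = 0.011). The mTeSR call was lost without either mTeSR library of day 4, without N2B27 replicate 1 of day 4 or without N2B27 replicate 1 of day 8 (edgeR adjusted p = 0.054 to 0.077). AXIN2 changed by 0.20 in N2B27 and by -0.82 in E8, a difference of -1.01 (adjusted p = 0.044). It was not called with the compared libraries alone (edgeR adjusted p = 0.051), nor without either library of day 4 in either medium, E8 replicate 1 of day 8 or N2B27 replicate 2 of day 8 (adjusted p = 0.068 to 0.25). LEF1 was also called between E8 and N2B27 (adjusted p = 0.012), with 2 of its 4 groups at the floor, but it was tested only because it is high in N2B27 on day 8, 1 of these groups, and adds no support. DESeq2 gave it no adjusted p, and the call was lost without E8 replicate 1 of day 4 or day 8, either N2B27 library of day 4 or N2B27 replicate 1 of day 8 (edgeR adjusted p = 0.060 to 0.15).

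XAV939 in N2B27 is the most direct test of WNT inhibition that the design offers, and it left every member uncalled on day 4. The 2 N2B27 libraries of Ex2, the control here, had 11.4 and 22.5 CPM of SP5, XAV had 12.4 and 11.5 CPM, and FAX had 7.36 and 9.90 CPM. The XAV libraries lay between the controls and the FAX libraries below both. SP5 differed from N2B27 by -0.51 in XAV (95% interval -1.11 to 0.08, edgeR adjusted p = 0.64) and by -0.98 in FAX (-1.63 to -0.33, adjusted p = 0.20). Both intervals include a fall of more than 2-fold. Without N2B27 replicate 2, the higher control, the FAX difference was -0.40. Leaving out the lower control instead moves it the other way, so that its size depends on the control library used.

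AXIN2 had 35.8 and 37.0 CPM in the controls, 40.3 and 43.9 in XAV and 37.6 and 36.1 in FAX. It was 0.21 above N2B27 in XAV (95% interval -0.19 to 0.61, edgeR adjusted p = 0.85) and 0.02 above it in FAX (-0.40 to 0.43, adjusted p = 1.0). A fall of 2-fold in AXIN2 lies outside both intervals. NKD1 differed by 0.05 in XAV (95% interval -0.78 to 0.88) and by -0.09 in FAX (-0.96 to 0.78). LEF1 had 0 and 5 counts in XAV, and LGR5 had 0 counts in all 6 libraries of day 4 in Ex2, so for these genes no inhibition was detectable at this depth.

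Among the antagonists, SFRP1 had 4.41 and 4.74 CPM in the controls, 9.63 and 7.34 in XAV and 6.60 and 4.72 in FAX. The XAV libraries lay above both controls, by 0.88 (95% interval 0.36 to 1.41, edgeR adjusted p = 0.092). SFRP2 had 37.4 and 43.4 CPM in the controls, 51.1 and 56.0 in XAV and 43.9 and 43.6 in FAX, a difference of 0.41 in XAV (95% interval 0.10 to 0.71, adjusted p = 0.28). FZD7 had 17.7 and 20.6 CPM in the controls, 20.5 and 21 in XAV and 21.3 and 25.5 in FAX, with differences of 0.11 (95% interval -0.25 to 0.48) and 0.29 (-0.08 to 0.66). WNT3 had 15.3 and 19.9 CPM in the controls, 13.6 and 16.9 in XAV and 20.3 and 17.0 in FAX, and differed from them by -0.21 and 0.08 (adjusted p = 0.85 and 0.97).

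In edgeR, 0 members were called between XAV and N2B27 (2 with an unadjusted p under 0.05), 0 between FAX and N2B27 (1 with an unadjusted p under 0.05) and 0 between FAX and XAV (1 with an unadjusted p under 0.05), and DESeq2 also called 0 in each. The tested genes gave few calls either, 0.57% for XAV, 0.336% for FAX and 0.012% for FAX against XAV. Against naive cells, which had themselves been kept in XAV939, both inhibited states had SP5, SFRP2 and FZD7 higher and SFRP1 lower, the same 4 members as N2B27 on day 4. SP5 was higher by 2.90 ± 0.38 in XAV (adjusted p = 2e-07) and by 2.44 ± 0.42 in FAX (adjusted p = 2.4e-05), with 3.72 ± 0.30 in N2B27 of both experiments. Against the naive libraries of Ex2 alone, which held 1 count of SP5 each, the fitted values were 5.17 ± 0.70 in XAV, 4.71 ± 0.77 in FAX and 5.69 ± 0.66 in N2B27, too near the floor to give a size. AXIN2 in XAV was 1.09 above the naive libraries of its own experiment (adjusted p = 0.00016) and past the limit for a call, but 0.28 above all 6 pooled (adjusted p = 0.39). The primitive streak list summed to 31.2 to 42.4 CPM in N2B27 of Ex2, 33.1 to 33.5 in XAV and 49.7 to 53.3 in FAX.

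**Figure D4:**
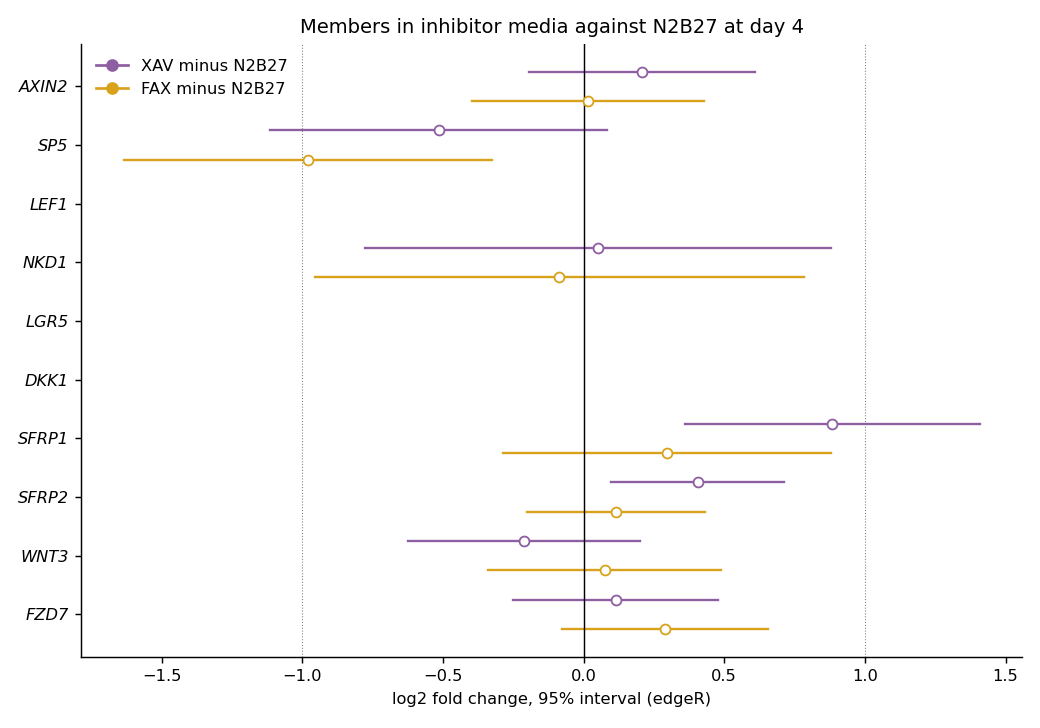
Log2 fold change on day 4 of each member in XAV and in FAX against N2B27 of the same experiment (horizontal axis), with its 95% interval; all points are open because no member was called, and dotted lines mark a 2-fold change. LEF1, LGR5 and DKK1 are left out because a group lay at the floor. SP5 in FAX, at -0.98, lay farthest from 0.

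The coating and the repeat of N2B27 give the background of the design. Between Geltrex and serum coating in naive cells of Ex1, edgeR called 0 members (2 with an unadjusted p under 0.05, 0 by DESeq2) and 0.048% of tested genes. Between N2B27 on day 4 of Ex2 and of Ex1, it called 0 members (2 with an unadjusted p under 0.05, 0 by DESeq2) and 1.01% of tested genes. SFRP1 differed by -0.75 on day 4 in Ex2 against Ex1 (95% interval -1.27 to -0.23, adjusted p = 0.099) and by 0.48 in naive cells on Geltrex (adjusted p = 0.024). In those naive cells AXIN2 differed by -0.82, as given above, and WNT3 by -0.79 (adjusted p = 0.0058), and none of the 3 genes passed the 2-fold limit.

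The rest of the pathway was read from a list of 99 other WNT genes, 76 of them tested. It shares TBXT, MIXL1, EOMES and CDX2 with the primitive streak and trophectoderm lists above. In N2B27 on day 8 against naive cells, 29 were called higher and 9 lower, where 16.9% and 7.03% of tested genes were, with a median log2 fold change of 0.42 against -0.03 for all tested genes. Secreted antagonists gave 7 higher and 1 lower of 11 tested, among them CER1, at 31.6 CPM from 0 counts in naive cells, and FRZB, at 5.58 CPM. Other known targets gave 6 higher and 0 lower of 8, among them TBXT, at 62.8 CPM. WNT ligands gave 2 higher and 3 lower of 6, with the non-canonical ligand WNT5A at 41.0 CPM, at least 40.1-fold above the floor of naive cells. The destruction complex gave 1 higher and 1 lower of 18.

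Between E8 and N2B27 on day 8, 1 gene of the list was higher and 15 were lower, where 3.33% and 3.96% of tested genes were called (median -0.10 against 0.01 for all tested genes). The 15 include TBXT, MIXL1, EOMES and CDX2, already counted above as markers of other cell types. WNT5A had a log2 difference of -3.96 ± 0.36 and CER1, an antagonist of WNT, Nodal and BMP, one of -3.59 ± 0.36, and edgeR called both. RSPO3, a ligand of LGR5, averaged 12.4 CPM in N2B27 and CDX2 16.9 CPM, and in E8 both lay at the floor, at least 17.6-fold and 24.0-fold lower. Of the 76 genes, 0 were called higher and 1 lower on day 2 (4.54% of all tested genes called), 0 and 2 on day 3 (1.68%), 1 and 6 on day 4 (2.49%), and 2 and 11 on day 6 (5.28%). MIXL1, a streak gene, was called lower in E8 on day 2 (-1.49 ± 0.46) and on day 4 (-2.83 ± 0.27). In mTeSR on day 8, 0 were higher and 5 lower, where 1.65% and 2.16% of tested genes were, with a difference of -3.64 ± 0.64 for RSPO3 and of -1.3 ± 0.32 for WLS, which carries WNT ligands to the cell surface.

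In XAV against N2B27, 1 gene of the list was called (0.57% of tested genes were), WNT9A, at 4.39 CPM against 11.8 (-1.42 ± 0.36, edgeR adjusted p = 0.035). FAX against N2B27 also gave 1 (0.336% of tested genes), MIXL1, at 33.1 CPM against 14.2 (1.22 ± 0.23, adjusted p = 0.0033). The median of the 76 genes was -0.09 in XAV, against 0.01 for all tested genes.

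Likeness to AXIN2 and SP5 was described by Pearson's r of log2 CPM over the 19 group means, without a test, since the points share libraries, medium and day. LEF1 lay at the floor in most groups, and no gene is ranked by likeness to it. Of all genes with at least 10 CPM in a group, those most like AXIN2 were NATD1 (0.85), ZNF253, PRICKLE1 and PDIA3 (each 0.79) and ZBTB14 (0.76). Those most like SP5 were CYP26A1 and DCBLD2 (0.95 each), SLC2A3, WLS and GAD1 (0.94 each).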

How the data were processed

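The 38 libraries were made with a 3′ tag kit (QuantSeq), 1 per sample, from Shef6 cells. The authors aligned reads with STAR 2.7.10a, quantified them with Salmon 1.9.0 in the nf-core/rnaseq pipeline and summed them per gene (per the labels, build hg38); the deposited table holds these estimated counts as whole numbers, and columns were matched to samples by title. Totals ran from 3038046 to 5612354 (median 4427277), and 21018 to 25447 genes had a count. Of 57133 genes, 14445 were 0 throughout and 16674 passed filterByExpr, holding 99.6% of counts.

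Library sizes were scaled by TMM and CPM computed from them. Tests used edgeR 4.0.16 (quasi-likelihood F-test, R 4.3.3), with Benjamini-Hochberg adjustment over all 16674 genes. The fit against naive cells used medium and day, and the fit between media used all 19 groups. Common dispersion was 0.010. A call needed an adjusted p under 0.05 and an absolute log2 fold change above 1. For members and listed genes, a call between groups also needed more than 3 counts in at least 1 of the libraries compared. SE is the log2 fold change over the square root of F, intervals are 95%, and folds against a group at the floor use the highest CPM that 3 counts stand for in that group. Intervals and floors cover these libraries only. The script was tested on simulated counts.

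All members were named in every comparison; other pathway genes were named if called, at 5 CPM or more and among the 4 largest changes; likeness named 5 genes each for AXIN2 and SP5, and none for LEF1, which was planned but lay at the floor in most groups. The members and lists were chosen with earlier results of these data known. Alternatives were DESeq2 1.42.0, other scalings and filters, fits to the compared libraries, naive libraries of the same experiment, the replicate number as a block, and leaving out each library (keeping the trended dispersion of the full fit). Chi-square per degree of freedom of replicate pairs was 1.34 to 10.2, so none was a repeat of another. Gene positions came from GENCODE v44 and promoters from RefSeq.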

Additional observations from a re-analysis of the deposited data

Results flagged for a closer look

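Of 30 differences between 2 effects tested for the members, 5 passed the threshold. The change of SFRP1 from naive cells on Geltrex to day 4 in N2B27 was -4.25 in Ex2 and -3.02 in Ex1 on the log2 scale, a difference of -1.23 ± 0.295 (edgeR adjusted p = 0.0056), where 6.48% of tested genes were called. From day 4 to day 8, E8 differed from N2B27 in SFRP1 by -3.26 (edgeR adjusted p = 8.7e-08), in AXIN2 by -1.01 (adjusted p = 0.044) and in LEF1 by -5.44 (adjusted p = 0.012), where 1.43% of tested genes were called. The AXIN2 call was lost with the compared libraries alone and without any of 6 of the 8 libraries compared (edgeR adjusted p = 0.051 to 0.25). The LEF1 call was lost without any of 5 libraries (edgeR adjusted p = 0.060 to 0.15). The LEF1 value is a fitted one with 2 of the 4 groups at the floor and is no measure of size. Over the same days, mTeSR differed from N2B27 in SFRP1 by -1.21 (adjusted p = 0.011), where 1.69% of tested genes were called, and the call was lost without any of 4 libraries (adjusted p = 0.054 to 0.077). In the 12 sets of 6 naive or 4 N2B27 day 4 libraries of a member that were tested for this, no library stood apart. Sets at the floor were not tested, among them LEF1 in naive cells, with 2 counts in 1 library and 0 in the others.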

How the results depend on the processing

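Of 2674 values of 203 member results in 25 comparisons under 48 settings, 2603 kept their side of the threshold, 47 lost the call, 22 gained it and 2 that were called had no adjusted p under DESeq2 (LEF1 from day 4 to 8 in E8, DKK1 in mTeSR against E8). No called value reversed, and 78 values that were not called changed sign. With the compared libraries alone, the members called were 2 for mTeSR against N2B27 from day 4 to 8 (1 in all libraries), 0 for E8 against N2B27 on day 3 (1), 4 for mTeSR against N2B27 on day 8 (2) and 3 for N2B27 on day 2 against naive cells (5). Without a filter they were 2 for mTeSR against N2B27 from day 4 to 8. E8 against N2B27 on day 2 gave 1 under DESeq2, without a filter and with plain totals (0 otherwise), and on day 8 it gave 4 under DESeq2 (8). The cause was not tested. Without 1 library, the counts ranged over 6 to 8 for E8 against N2B27 on day 8, 0 to 1 on day 3, 1 to 2 on day 4 and 2 to 4 on day 6, over 1 to 2 for mTeSR against N2B27 on days 4 and 8, over 3 to 5 for mTeSR against E8 on day 8, over 1 to 3 for E8 and 0 to 1 for mTeSR from day 4 to 8, and, against naive cells, over 4 to 5 for N2B27 on day 2, 5 to 7 on day 6, 5 to 6 for E8 on day 8, 7 to 8 for mTeSR on day 8 and 4 to 5 for XAV. With naive libraries of the same experiment, SFRP1 lost its call in mTeSR on day 8 (-0.97) and AXIN2 gained one in XAV (1.09).

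The labels tie the replicate numbers to no shared culture, and differences between replicates 1 and 2 correlated at -0.35 to 0.26 over 111 pairs of groups, 7 of them over 0.1. With the replicate number as a block, the members called stayed 8 for E8 against N2B27 on day 8 and 7 for N2B27 on day 8 against naive cells, and no other count of members changed. Counts over all genes moved more. With the compared libraries alone they were 407 for E8 against N2B27 on day 2 (757 in all libraries), 6 on day 3 (280), 657 on day 4 (415) and 800 on day 8 (1216), 134 for FAX against N2B27 (56), 25 for FAX against XAV (2), 450 for mTeSR against E8 on day 8 (885), 298 for Ex2 against Ex1 (168), 1 for coating (8) and 165 for XAV against N2B27 (95). Under DESeq2 they were 488, 166 and 263 for E8 on days 2, 3 and 4, 162, 290 and 418 for mTeSR against N2B27 on days 4, 6 and 8 (263, 437 and 635), 102 for Ex2 against Ex1 and 1 for FAX against XAV. Without a filter they were 88 for FAX against N2B27, 23 for FAX against XAV and 106 for coating. Without 1 library they ranged over 0 to 146 for coating, 27 to 36 for FAX and 56 to 80 for XAV against N2B27, 0 to 1 for FAX against XAV, 54 to 99 for Ex2 against Ex1, 339 to 975, 118 to 513, 198 to 339, 522 to 720 and 767 to 1376 for E8 against N2B27 on days 2, 3, 4, 6 and 8, and 112 to 161, 222 to 321 and 365 to 475 for mTeSR on days 4, 6 and 8. The shares of tested genes given as background move with them. LEF1, LGR5 and DKK1 were limited by depth outside day 8.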
